A study of Mus musculus with 24 samples.

Results

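The genes described here are the histone genes of mouse embryonic stem cells and embryoid bodies in which the chromatin reader BRD2 can be removed with auxin. They were taken by symbol, as every row of the deposited tables whose name follows the nomenclature of the histone families H1, H2A, H2B, H3 and H4. Of 35742 genes, 73 matched, 1 of them a pseudogene symbol that was left out, and 40 more were left out because their mean over the 24 libraries was under 5 normalized counts. The remaining 32 are 24 clustered genes (3 of H1, 4 of H2A, 7 of H2B, 6 of H3 and 4 of H4) and 8 replacement genes (2 of H1, 4 of H2A and 2 of H3). Just inside the threshold were H2aw (mean 5.20) and H2ac13 (5.29), and just outside it H3c11 and Hist1h2an (both 4.6). Macro-H2A genes and Cenpa do not carry names of this form and are not among them.

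RNA came from V6.5, a line of mouse embryonic stem (mES) cells with a degron on BRD2, so that auxin can direct the protein to degradation. Cells were taken as mES cells, grown in 2i medium with LIF, or as embryoid bodies formed without LIF, on day 2 (EBd2), day 3 (EBd3) or day 4 (EBd4). All 8 groups received doxycycline (Dox, 1 µg/ml, 18 h). In each stage one group had Dox alone and the other also had indole-3-acetic acid (IAA, 500 µM, 24 h), with 3 libraries each. The labels give no untagged line and no group without Dox, do not say whether the line is 1 clone, and do not say whether the 3 libraries of a group were separate cultures, so p-values measure the spread between these samples alone.

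Nucleosomes wrap DNA around cores of H2A, H2B, H3 and H4, and linker histones of the H1 family bind where DNA enters and leaves. Clustered histone genes are transcribed mainly in S phase to package new DNA. Their mRNAs usually end in a short stem-loop bound by SLBP rather than in a poly(A) tail. Replacement genes mostly lie apart from the clusters, usually give polyadenylated mRNAs through the cell cycle and supply variants such as H3.3, H2A.Z and H2A.X. BRD2 belongs to the BET family, whose bromodomains bind acetylated lysines of histone tails.

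The stem-loop was found more often in the clustered genes, and it is shown first. The letters searched, along the transcript, were GG, any 2 bases, CT, any 4 bases, AG, any 2 bases and CC, in annotated 3′ UTRs of GENCODE M21 (GRCm38, which is mm10). They were found in 18 of 24 clustered genes and in 1 of 8 replacement genes, H2afx, beside 2.33% of 44785 protein-coding transcripts with a 3′ UTR of any length. Only 21 of the 24 clustered genes have an annotated 3′ UTR, so the letters could not be found in H2ac13, H3c10 and H4c12. All 8 replacement genes have one. The exact letters of the H1f2 stem-loop, printed below, were in 10 clustered genes and in 29 (0.0648%) of those transcripts. In the lines below the 16 bases of the stem-loop are in capitals, with 7 bases on either side, 5′ to 3′ and with T for U. They cover each clustered family and the replacement gene that has one.
H1f2: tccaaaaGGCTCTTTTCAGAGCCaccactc
H2ac8: aaacaaaGGCTCTTTTCAGAGCCattcact
H2bu2: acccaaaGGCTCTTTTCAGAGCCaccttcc
H3c3: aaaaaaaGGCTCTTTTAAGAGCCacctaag
H4c9: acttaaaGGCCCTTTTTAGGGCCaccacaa
H4c4: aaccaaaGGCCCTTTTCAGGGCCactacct
H2afx: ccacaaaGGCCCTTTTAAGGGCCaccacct
The annotated transcript of H2afx goes on for 822 bases past its stem-loop, as those of H1f2 (840 bases), H4c4 (770) and H4c9 (330) do. That of H2ac11 ends after 23. Clustered genes that passed the threshold had a median longest 3′ UTR of 199.5 bases and those left out one of 85, so the annotation of the 2 sets differs.

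A pair of upstream regions shows the other end of the genes. They are from RefSeq (GRCm38.p6), cover 250 bases before the RefSeq start, and hold in capitals any CCAAT box, spelled CCAAT, any octamer, spelled ATTTGCAT, and any TATA box, spelled TATAAA, on either strand. H2bu2, the clustered gene that rose most across the stages, has 4 CCAAT and 2 TATA matches (chr11:58948661-58948910, plus strand). H1f0, the replacement gene with the largest rise with IAA, has none, and 74.4% of its bases are G or C (chr15:79027962-79028211, plus strand). Its GENCODE start lies downstream of the RefSeq start.
H2bu2 upstream: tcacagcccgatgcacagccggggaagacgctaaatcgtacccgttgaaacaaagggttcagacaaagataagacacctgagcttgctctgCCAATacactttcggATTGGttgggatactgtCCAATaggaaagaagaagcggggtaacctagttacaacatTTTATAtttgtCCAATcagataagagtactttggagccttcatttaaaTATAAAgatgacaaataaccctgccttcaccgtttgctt
H1f0 upstream: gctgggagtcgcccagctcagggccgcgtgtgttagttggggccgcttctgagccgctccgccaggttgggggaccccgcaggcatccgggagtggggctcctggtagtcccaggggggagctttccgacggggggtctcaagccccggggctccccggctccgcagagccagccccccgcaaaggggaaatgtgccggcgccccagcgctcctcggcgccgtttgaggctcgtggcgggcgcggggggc
RefSeq regions were matched for 27 of the 32 genes. CCAAT was in 17 of 20 clustered and 5 of 7 replacement genes, beside 34.5% of 27025 promoters. The octamer was in 4 of 20 and 1 of 7 (1.61% of promoters), in clustered genes only of H2A and H2B. TATA was in 10 of 20 and 1 of 7 (12.97% of promoters). Among the 4 clustered H4 genes 1 had CCAAT and 3 had TATA. The regions of H2ac11 and H2bc11 overlap on opposite strands, as do those of H2ac8 and H2bc8. Matches in the shared bases, such as the octamer of H2ac8 and H2bc8, are therefore counted for both genes. A match describes the letters and shows no binding.

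Libraries held between 7819522 and 15732767 reads, and in EBd4 every IAA library (9007143 or more) had more than every Dox library (8120480 or fewer). Brd2 RNA rose with IAA in every stage, by 0.38 to 0.87 on the log2 scale, and does not show whether the protein was lost. Summed markers of embryonic stem cells (6 genes) were 44916 to 51312 normalized counts in mES and 10228 to 12617 in embryoid bodies. Their sums were higher with IAA in mES (49732 to 51312 against 44916 to 45950 with Dox) and lower in EBd4 (10228 to 10770 against 11507 to 12305), without overlap. Yet of the 6 genes 3 rose and 2 fell with IAA in EBd4 (4.69% and 5.57% of all genes), with a median log2 change of 0.56. A sum weighs genes of high count most. Epiblast markers (4 genes) summed to 556 to 628 with IAA against 1223 to 1352 with Dox in mES, and to 31373 to 33209 against 23569 to 25260 in EBd2. In mES 3 of these 4 genes were tested, of which 2 rose and 1 fell (17.3% and 20.1% of all genes), with a median log2 change of 0.21. In EBd3 their sums overlapped, and in EBd4 they were 18571 to 19568 against 19608 to 21213. Markers of fibroblasts (6 genes, Lum at 0 in 7 of 8 groups) summed to 15.1 to 536, and were lower with IAA in mES (15.1 to 32.6 against 46.0 to 50.2) and EBd2 (107 to 117 against 169 to 215). In EBd3 and EBd4 the fibroblast sums overlapped. Primitive streak markers (4 genes) were also lower with IAA in mES (56.5 to 77.5 against 90.3 to 91.998). In EBd2 they summed to 60.9 to 73.6 with IAA against 91.7 to 102 with Dox. Their EBd4 sums were 1256 to 3083 with Dox and 111 to 2217 with IAA, which overlap. Of the fibroblast genes, 1 of 2 tested fell in mES and 3 of 5 in EBd2. Of the primitive streak genes, 1 of 3 tested fell in mES, 1 of 4 in EBd2 and 1 of 4 in EBd4. Over all genes 20.1%, 16.7% and 5.57% fell in mES, EBd2 and EBd4. EBd2 Dox 3 differed from the other EBd2 Dox libraries, and without it 10 histone genes were called with IAA in EBd2 in place of 12. Leaving out any 1 EBd2 library gave 7 to 11. Over all genes 7248 were called without EBd2 Dox 3, beside 6638 with all libraries and 5090 to 5358 without any other EBd2 library. The part of these differences in the histone results was not tested. In bulk RNA, fewer cells of a type and less RNA per cell cannot be told apart.

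Replacement genes stood far above clustered genes in these libraries. Per kilobase of exon, their levels (mean of 24 libraries) ranged from 238 normalized counts for H2afj to 3208 for H2afz, with a median of 1035. The 24 clustered genes ranged from 0.838 for H1f3 to 97.6 for H4c9, with a median of 16.2, so the classes did not overlap on this scale. Between these ends came H3f3b (2524), H2afx (1773), H3f3a (1461), H2afv (609), H1f0 (449) and H1f10 (302). Exons of H1f3, at the low end, are annotated over 7425 bases, which lowers its value per kilobase. Together the 24 clustered genes held 290 to 795 reads in a library and the 8 replacement genes 16216 to 37094. The labels do not say whether RNA was selected by its poly(A) tail, so this order holds for these libraries alone.

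**Figure D1:**
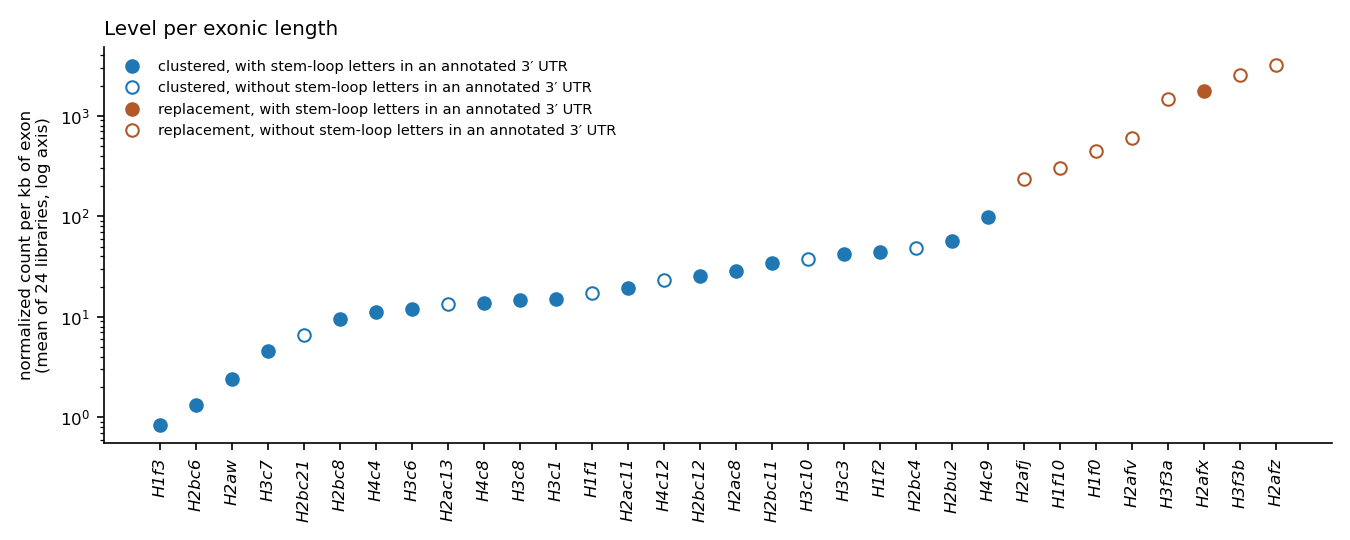
Mean normalized count over the 24 libraries per kilobase of merged exon (log axis) for the 32 genes, ordered within class. Filled points have stem-loop letters in an annotated 3′ UTR, and open points include H2ac13, H3c10 and H4c12, which have no annotated 3′ UTR. All 24 clustered genes lie below 97.6 or at it and all 8 replacement genes at 238 or above.

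Precision followed the level. The median coefficient of variation within a group was 25.0% over clustered genes (9.73% to 44.1%) and 3.03% over replacement genes (2.73% to 9.78%). Clustered genes also share sequence. The share of a gene's 50-base stretches found in no other gene's transcripts had a median of 53.6% for clustered genes (6.08% for H3c10, 100% for H1f1) and 95.8% for replacement genes (83.1% or more). How reads that fit several copies were counted is not given in the sources used here, so values of single clustered genes with near-identical copies are uncertain.

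Across the Dox stages, replacement genes fell more often than they rose against mES. Against Dox mES, 2 of 8 rose and 5 fell in EBd2, beside 35% and 29.1% of all genes tested. In EBd3 1 rose and 6 fell (31.5% and 28.6% of all genes), and in EBd4 2 rose and 5 fell (30.6% and 30.2%). The median log2 change of the 8 was -0.43, -0.65 and -0.58, beside 0.071, 0.028 and 0 over all genes. H1f10, H2afz, H2afv and H2afx fell in all 3 comparisons, H3f3b rose in all 3, and H3f3a passed in none with all libraries and the main scaling. The 3 comparisons share the mES Dox libraries.

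With IAA, 5 of the 8 replacement genes changed in mES: H1f0, H1f10, H2afv and H3f3b rose and H2afx fell, beside 17.3% and 20.1% of all genes tested. Of all genes called in mES, 46.3% rose, or 33.2% with scaling to total reads. In EBd2 H1f0, H1f10 and H2afz rose and H2afx and H2afj fell (13.4% and 16.7% of all genes). In EBd3 H1f0 and H3f3b rose and H2afx fell (4.22% and 6.32%). In EBd4 H1f0, H1f10 and H3f3b rose and H2afz and H3f3a fell (4.69% and 5.57%). H1f0 was the replacement gene that rose in all 4 stages. The median log2 change of the 8 was 0.088, 0.14, 0.067 and 0.040 in the 4 stages, beside -0.014, -0.039, -0.013 and -0.0072 over all genes. Over all 32 histone genes, 12 were called in EBd2 and 7 without EBd2 IAA 2, 3 in EBd3 and 5 without EBd3 IAA 3, and 6 in EBd4 and 2 without EBd4 Dox 1 or without EBd4 IAA 2.

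**Figure D2:**
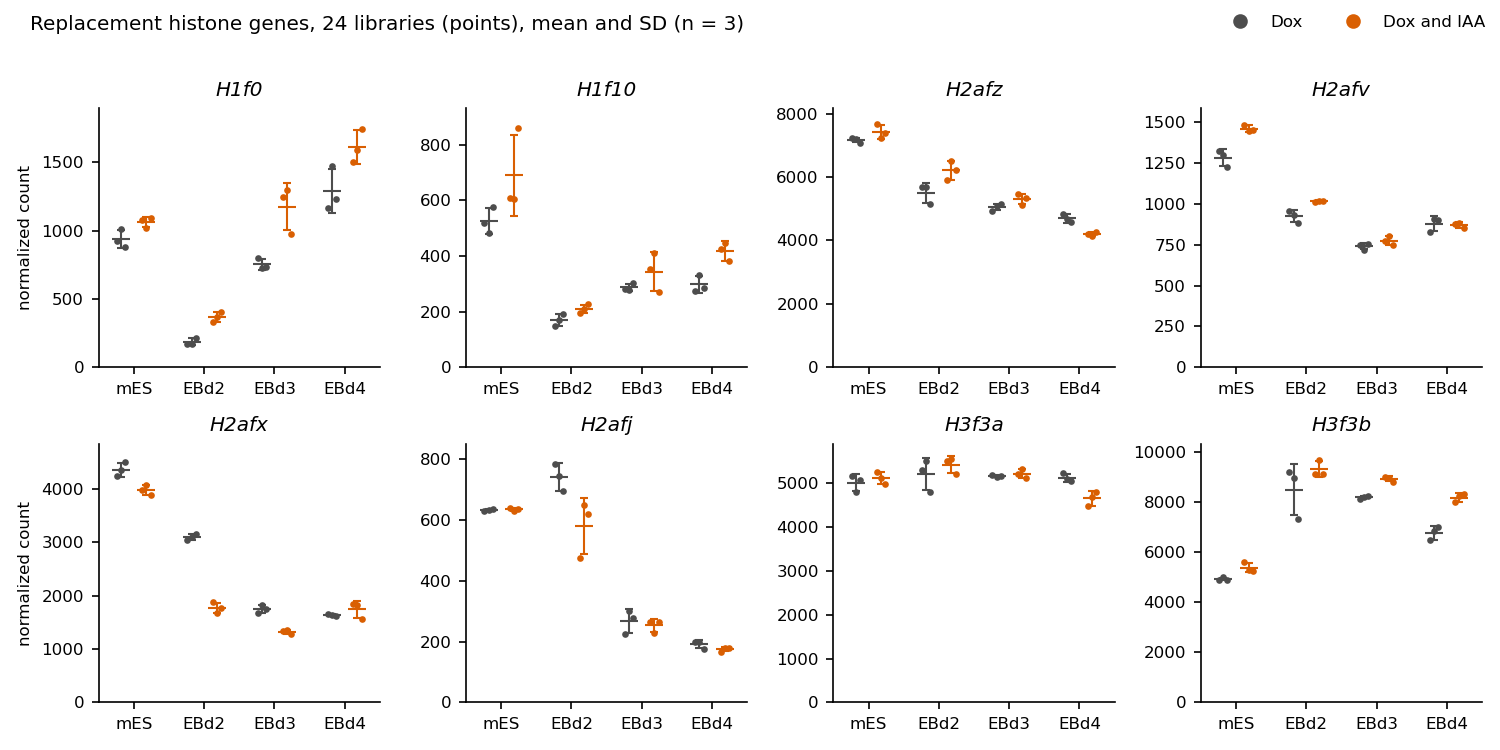
Size-factor-normalized counts of the 8 replacement genes in the 24 libraries (points) by stage, with the mean and SD of each group of 3. Grey is Dox and orange Dox with IAA. H1f0 is lowest in EBd2 and H2afx separates by treatment in mES, EBd2 and EBd3.

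H1f0 encodes H1.0, the linker histone that accumulates in differentiating and non-dividing cells (ENSMUSG00000096210, chromosome 15, 79028450 to 79030504, plus strand, 1 exon). In mES its normalized counts were 920.4, 1010.3 and 879 with Dox and 1079.6, 1022 and 1091 with IAA. H1f0 in EBd2 stood at 173, 170.1 and 217 with Dox and 328, 367 and 407 with IAA, the lowest of the 4 stages. Every IAA library was above every Dox library in both stages. H1f0 in EBd3 stood at 801, 728 and 732 with Dox and 1248, 1297 and 978 with IAA. By EBd4 it reached 1163, 1473 and 1230.0 with Dox and 1498, 1592 and 1741 with IAA, again without overlap in either stage. The log2 change with IAA was 0.19 ± 0.043 in mES (adjusted p = 0.000595), 0.98 ± 0.097 in EBd2 (adjusted p = 1.70e-07), 0.63 ± 0.074 in EBd3 (adjusted p = 1.37e-06) and 0.33 ± 0.078 in EBd4 (adjusted p = 0.0154). The mES call was lost in the joint fit of all 24 libraries (adjusted p = 0.161), and the EBd4 call without EBd4 Dox 1, EBd4 Dox 3, EBd4 IAA 2 or EBd4 IAA 3 (adjusted p = 0.0608 to 0.128). Under Dox alone, H1f0 changed against mES by -2.33 ± 0.086 in EBd2 (adjusted p = 2.14e-17), -0.31 ± 0.086 in EBd3 (adjusted p = 0.003) and 0.45 ± 0.086 in EBd4 (adjusted p = 6.12e-05). It thus fell, then lay closer to mES, then passed above it. Its exons overlap Gm49544 on the opposite strand, and strandedness is not given.

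H1f10 encodes H1X, a linker histone variant expressed widely (ENSMUSG00000044927, chromosome 6, 87980421 to 87981637, minus strand, 1 exon). H1f10 in mES stood at 519, 481 and 576 with Dox and 609.6, 604 and 859 with IAA. H1f10 in EBd2 stood at 149, 168 and 192 with Dox and 193, 209 and 225 with IAA. The groups did not overlap in either stage, and mES IAA 3 was far above the other mES libraries. H1f10 in EBd3 stood at 281, 277 and 301 with Dox and 352, 410.0 and 269 with IAA, where IAA 3 lay below every Dox library. H1f10 in EBd4 stood at 274, 333 and 286 with Dox and 426, 448 and 380.1 with IAA, without overlap. It rose with IAA by 0.38 ± 0.075 in mES (adjusted p = 8.26e-05), 0.30 ± 0.099 in EBd2 (adjusted p = 0.0244) and 0.49 ± 0.092 in EBd4 (adjusted p = 0.00374), and measured 0.24 ± 0.11 in EBd3 (adjusted p = 0.159). The mES call was lost by DESeq2 (adjusted p = 0.0812), and the EBd2 call with total-read scaling, by DESeq2 or in the joint fit of all 24 libraries (adjusted p = 0.0616 to 0.062) and without EBd2 Dox 1, EBd2 Dox 2, EBd2 IAA 2 or EBd2 IAA 3 (adjusted p = 0.0686 to 0.14). The EBd3 value passed without EBd3 IAA 3 (adjusted p = 0.00223). Under Dox, H1f10 fell against mES, at log2 changes of -1.63 ± 0.093 in EBd2 (adjusted p = 1.17e-13), -0.87 ± 0.093 in EBd3 (adjusted p = 1.43e-08) and -0.82 ± 0.093 in EBd4 (adjusted p = 3.53e-08). Its exons overlap Gm47286 on the same strand and Gm5577 on the opposite one.

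H2afz and H2afv encode H2A.Z.1 and H2A.Z.2, forms of the variant found in nucleosomes beside transcription starts. H2afz (ENSMUSG00000037894, chromosome 3, 137864487 to 137866922, plus strand, 3 merged exons) in mES stood at 7220.2, 7214 and 7090.3 with Dox and 7674, 7221 and 7398 with IAA. H2afz in EBd2 stood at 5686, 5696 and 5135 with Dox and 5912, 6494 and 6224 with IAA. The IAA libraries were higher in both stages, with the nearest pair almost equal in mES. H2afz in EBd3 stood at 4937, 5080.5 and 5144 with Dox and 5455, 5130.2 and 5335 with IAA, which overlap. H2afz in EBd4 stood at 4841, 4682 and 4572 with Dox and 4212, 4131 and 4269.8 with IAA, with every IAA library lower. It rose in EBd2 (0.17 ± 0.048, adjusted p = 0.00824) and fell in EBd4 (-0.16 ± 0.040, adjusted p = 0.019). In mES it measured 0.050 ± 0.022 (adjusted p = 0.0729) and in EBd3 0.070 ± 0.035 (adjusted p = 0.229). The EBd2 call was lost without EBd2 IAA 2 (adjusted p = 0.0702), and the EBd4 call with TMM scaling or with a replicate block (adjusted p = 0.0518 to 0.0757) and without EBd4 Dox 1, EBd4 Dox 2 or EBd4 IAA 2 (adjusted p = 0.09 to 0.104). The mES value passed by edgeR (adjusted p = 0.0346) and without mES IAA 2 (adjusted p = 0.018). Under Dox it fell against mES, at log2 changes of -0.38 ± 0.038, -0.51 ± 0.038 and -0.61 ± 0.038 in EBd2, EBd3 and EBd4 (adjusted p = 2.88e-09, 2.26e-11 and 5.24e-13).

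H2afv (ENSMUSG00000041126, chromosome 11, 6427229 to 6444443, minus strand, 5 merged exons) in mES stood at 1326, 1298 and 1227 with Dox and 1485, 1444 and 1453 with IAA. H2afv in EBd2 stood at 956, 935 and 884 with Dox and 1009, 1020.3 and 1019.5 with IAA. Every IAA library was above every Dox library in both. H2afv in EBd3 stood at 749, 721 and 755 with Dox and 772, 805 and 749 with IAA, and in EBd4 at 825, 906 and 901 with Dox and 879, 884 and 853 with IAA, with overlap in both. It rose in mES (0.19 ± 0.035, adjusted p = 4.12e-05) and measured 0.14 ± 0.053 in EBd2 (adjusted p = 0.0561), 0.064 ± 0.058 in EBd3 (adjusted p = 0.564) and -0.0079 ± 0.059 in EBd4 (adjusted p = 0.957). The EBd2 value passed with a mean of at least 10 required, with TMM scaling, by edgeR or in the joint fit of all 24 libraries (adjusted p = 0.0138 to 0.0366). Under Dox it fell against mES, at log2 changes of -0.47 ± 0.052, -0.79 ± 0.052 and -0.55 ± 0.052 in the 3 stages (adjusted p = 1.88e-08, 1.96e-12 and 1.45e-09).

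H2afx encodes H2A.X, which is phosphorylated beside DNA breaks (ENSMUSG00000049932, chromosome 9, 44334694 to 44336077, plus strand, 1 exon). H2afx in mES stood at 4229.7, 4342 and 4494 with Dox and 3972, 4065 and 3878 with IAA. H2afx in EBd2 stood at 3031, 3104 and 3143 with Dox and 1871, 1677 and 1758 with IAA. H2afx in EBd3 stood at 1669, 1821 and 1757 with Dox and 1335, 1347 and 1275 with IAA. In these 3 stages every IAA library was below every Dox library. H2afx in EBd4 stood at 1654, 1637 and 1609 with Dox and 1845, 1821 and 1554 with IAA, with IAA libraries on both sides of the Dox libraries. It fell with IAA, at log2 changes of -0.13 ± 0.026 in mES (adjusted p = 6.21e-05), -0.81 ± 0.048 in EBd2 (adjusted p = 1.73e-10) and -0.41 ± 0.048 in EBd3 (adjusted p = 1.51e-06), and measured 0.087 ± 0.062 in EBd4 (adjusted p = 0.432). These 3 calls were kept with each library left out in turn and in every other setting run. The EBd2 level was 0.572 times that with Dox. Under Dox alone H2afx fell against mES, at log2 changes of -0.49 ± 0.039, -1.32 ± 0.039 and -1.41 ± 0.039 in EBd2, EBd3 and EBd4 (adjusted p = 6.35e-11, 3.84e-19 and 8.15e-20). It is the replacement gene with a stem-loop (printed above), and its exons overlap Gm44335 on the opposite strand.

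H2afj encodes H2A.J, a mammalian variant reported to accumulate in senescent cells (ENSMUSG00000060032, chromosome 6, 136808244 to 136810074, plus strand, 1 merged exon). H2afj in mES stood at 631, 632 and 636 with Dox and 639, 629.8 and 638 with IAA. H2afj in EBd2 stood at 786, 747 and 695 with Dox and 474, 649 and 619 with IAA, with every IAA library lower. It fell there, at -0.37 ± 0.086 (adjusted p = 0.00271). H2afj in EBd3 stood at 224, 302 and 279 with Dox and 266, 229 and 265 with IAA, and in EBd4 at 199, 199 and 178 with Dox and 167, 179 and 179 with IAA, with overlap in both. The IAA values in mES, EBd3 and EBd4 were 0.0064 ± 0.044, -0.077 ± 0.10 and -0.13 ± 0.099 (adjusted p = 0.931, 0.719 and 0.472). Under Dox it rose against mES in EBd2 (0.23 ± 0.085, adjusted p = 0.0216) and fell in EBd3 (-1.24 ± 0.085, adjusted p = 4.17e-12) and EBd4 (-1.72 ± 0.085, adjusted p = 6.54e-15). The rise was lost with TMM scaling (adjusted p = 0.067) and without mES Dox 1, mES Dox 2, EBd2 Dox 1 or EBd2 Dox 2 (adjusted p = 0.0523 to 0.0968). Its exons overlap Gm44364 on the opposite strand.

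H3f3a and H3f3b encode the same protein, H3.3, which is placed outside replication by the HIRA and DAXX-ATRX chaperones. H3f3a (ENSMUSG00000060743, chromosome 1, 180800832 to 180813943, minus strand, 6 merged exons) in mES stood at 5175, 4814 and 5073 with Dox and 5251, 5121 and 4989 with IAA. H3f3a in EBd2 stood at 5314, 5510.2 and 4811 with Dox and 5524, 5559.7 and 5215 with IAA, and in EBd3 at 5196, 5144 and 5163 with Dox and 5217, 5325 and 5123 with IAA. Groups overlapped in these stages. H3f3a in EBd4 stood at 5229, 5092 and 5067 with Dox and 4477, 4698 and 4816 with IAA, with every IAA library lower. The EBd4 change was -0.14 ± 0.041 (adjusted p = 0.0433). That call was lost without a filter on low values, with TMM scaling, by edgeR, by DESeq2 or with a replicate block (adjusted p = 0.0587 to 0.104) and without EBd4 Dox 1, EBd4 Dox 2, EBd4 Dox 3, EBd4 IAA 1 or EBd4 IAA 2 (adjusted p = 0.0759 to 0.17). In mES, EBd2 and EBd3 the IAA values were 0.029 ± 0.026, 0.062 ± 0.049 and 0.015 ± 0.033 (adjusted p = 0.415, 0.374 and 0.847). Under Dox it measured 0.052 ± 0.041, 0.042 ± 0.041 and 0.031 ± 0.041 against mES, with 95% intervals of -0.032 to 0.14, -0.042 to 0.13 and -0.053 to 0.12 (adjusted p = 0.272, 0.386 and 0.529). The EBd2 value was 0.11 and passed without EBd2 Dox 3 (adjusted p = 0.00565), and the EBd3 value was 0.098 and passed with total-read scaling (adjusted p = 0.0193). Its exons overlap H3f3aos and Gm17275 on the opposite strand.

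H3f3b (ENSMUSG00000016559, chromosome 11, 116021912 to 116027962, minus strand, 4 merged exons) in mES stood at 4897, 4982 and 4889 with Dox and 5583, 5284 and 5248 with IAA. H3f3b in EBd2 stood at 9185, 8935 and 7313 with Dox and 9109.6, 9676 and 9121 with IAA, where Dox 3 is the low library and the groups overlap. H3f3b in EBd3 stood at 8128, 8184 and 8213 with Dox and 8982, 8956 and 8801 with IAA. In mES and EBd3 every IAA library was higher. H3f3b in EBd4 stood at 6465, 6832 and 6995 with Dox and 7982, 8221 and 8302 with IAA, again without overlap. It rose with IAA by 0.13 ± 0.024 in mES (adjusted p = 5.73e-05), 0.12 ± 0.029 in EBd3 (adjusted p = 0.00575) and 0.27 ± 0.040 in EBd4 (adjusted p = 0.00074), and measured 0.14 ± 0.060 in EBd2 (adjusted p = 0.0868). The mES call was lost in the joint fit of all 24 libraries (adjusted p = 0.0561), and the EBd3 call in the joint fit of all 24 libraries (adjusted p = 0.1). The EBd2 value passed without a filter on low values, with TMM scaling, by edgeR, with a replicate block or in the joint fit of all 24 libraries (adjusted p = 0.0237 to 0.0472) and without EBd2 Dox 1 (adjusted p = 0.0277). Under Dox H3f3b rose against mES by 0.78 ± 0.053, 0.73 ± 0.053 and 0.46 ± 0.053 (adjusted p = 3.87e-12, 1.45e-11 and 5.54e-08). As a share of the reads of both H3.3 genes, H3f3b took 49.5% ± 1.18 (SD, n = 3) in Dox mES and 61.8% ± 1.51, 61.3% ± 0.229 and 56.9% ± 1.40 in Dox EBd2, EBd3 and EBd4. With IAA the shares were 51.2% ± 0.380, 63.1% ± 0.761, 63.1% ± 0.303 and 63.7% ± 0.391. The groups did not overlap in EBd3 and EBd4, where an exact two-sided permutation test gave the smallest p that 3 against 3 allows, 0.1, and they overlapped in mES and EBd2 (exact permutation p = 0.2 in each).

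The clustered genes were few in reads and mixed in direction. With IAA, 0 of 24 rose and 1 fell in mES, 2 rose and 5 fell in EBd2, and 1 rose and 0 fell in EBd4, beside the same shares of all genes as above (17.3% and 20.1% in mES, 13.4% and 16.7% in EBd2, 4.69% and 5.57% in EBd4). In EBd3 limma called 0 of 24, as edgeR and DESeq2 did (12 had no adjusted p in DESeq2), and 2 had an unadjusted limma p under 0.05. Clustered calls numbered 2 in mES without Dox 2, Dox 3 or IAA 3, 4 in EBd2 without IAA 2, 1 in EBd3 without IAA 3 and 0 in EBd4 without Dox 1 or IAA 2. DESeq2 called 3 in EBd2 in place of 7, with 4 of the 24 given no adjusted p. The mES fall was H1f2. The EBd2 rises were H1f1 and H3c10, and the falls H1f2, H2aw, H2bc4, H2bu2 and H4c9. The EBd4 rise was H2bu2. The median log2 change of the 24 was 0.038, -0.018, -0.086 and 0.15 in mES, EBd2, EBd3 and EBd4, beside -0.014, -0.039, -0.013 and -0.0072 over all genes. Single values ranged from -1.34 to 1.20 in EBd2 with SE of 0.12 to 0.46. The authors' deposited table marks as changed 2 of the 32 histone genes, H1f1 (log2 1.18, adjusted p = 0.0162) and H3c10 (1.11, adjusted p = 0.0380), both higher in EBd2. It marks genes of smaller log2 change as unchanged, such as H1f0 in EBd2 (log2 0.97, adjusted p = 5.58e-16).

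**Figure D3:**
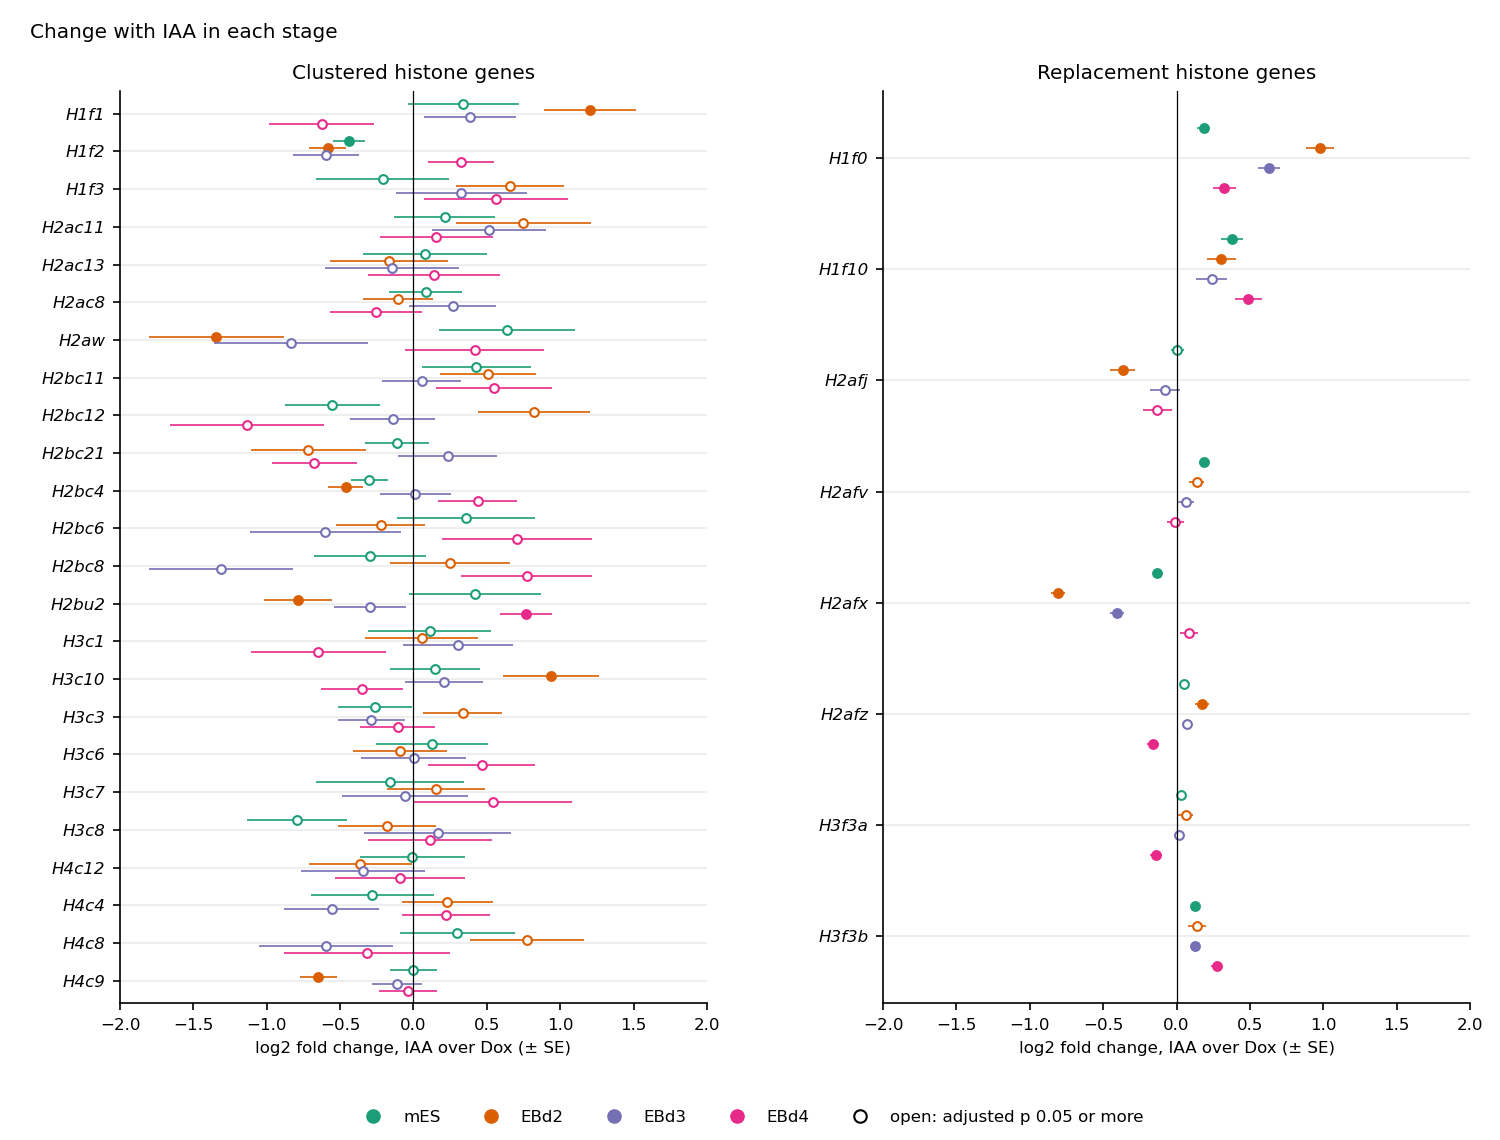
Log2 fold change of IAA over Dox (limma, ± SE) for the 24 clustered genes (left) and the 8 replacement genes (right) in the 4 stages. Filled points have an adjusted p under 0.05. SE bars of clustered genes span 0.11 to 0.56 and those of replacement genes 0.022 to 0.11.

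Across the Dox stages clustered genes changed in both directions. Against mES, 6 rose and 5 fell in EBd2, 9 rose and 4 fell in EBd3, and 7 rose and 3 fell in EBd4, of 24, beside the shares of all genes given for the replacement genes (35% and 29.1%, 31.5% and 28.6%, 30.6% and 30.2%). Median log2 changes of the 24 were 0.17, 0.63 and 0.28. H2bu2 rose in all 3 comparisons, and no clustered gene fell in all 3. With 1 library left out, clustered calls fell to 5 without EBd2 Dox 3 and 6 without mES Dox 2 in EBd2, and to 5 without mES Dox 1 or without mES Dox 3 in EBd4. DESeq2 called 5 of 24 in EBd2 in place of 11, 9 in EBd3 in place of 13 and 5 in EBd4 in place of 10, and edgeR called 12, 13 and 10. H2bc4, H3c3 and H3c10 were called in both directions, and 7 of the 24 in none. Among genes not described below and picked here after their values were seen, H2bc21 (-1.44 ± 0.31, adjusted p = 0.000269) and H2bc12 (-1.43 ± 0.31, adjusted p = 0.00033) fell in EBd2 and H2bc11 rose in EBd3 (1.90 ± 0.42, adjusted p = 0.000344).

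**Figure D4:**
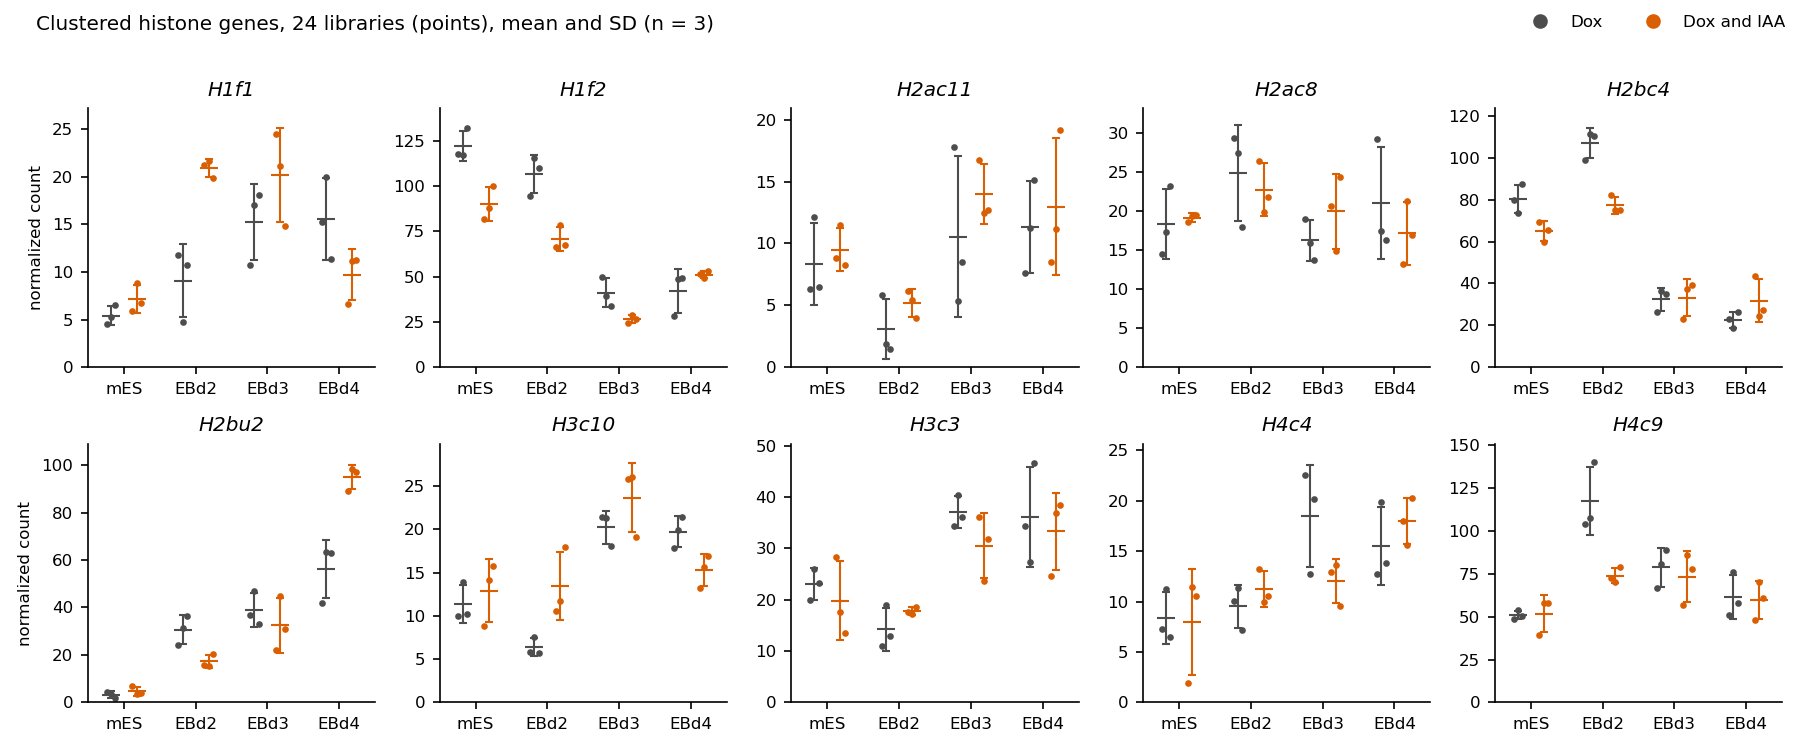
Size-factor-normalized counts of 10 clustered genes in the 24 libraries (points) by stage, with the mean and SD of each group of 3. Grey is Dox and orange Dox with IAA. H2bu2 is under 7 in every mES library and above 15 in every embryoid body library, and H1f2 and H2bc4 are lowest in EBd3 and EBd4.

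H1f2, also named Hist1h1c, encodes linker histone H1.2 (ENSMUSG00000036181, chromosome 13, 23738808 to 23740367, plus strand, 1 exon). H1f2 in mES stood at 118, 117 and 132 with Dox and 82.1, 88.1 and 100.1 with IAA. H1f2 in EBd2 stood at 94.7, 115 and 109.8 with Dox and 66.2, 78.5 and 67.6 with IAA. H1f2 in EBd3 stood at 49.9, 39.4 and 33.96 with Dox and 24.5, 28.6 and 26.5 with IAA. In these 3 stages every IAA library was below every Dox library. H1f2 in EBd4 stood at 28.01, 48.6 and 49.1 with Dox and 51.2, 49.2 and 53.01 with IAA, where every IAA library was higher but the nearest pair almost equal. It fell with IAA, at log2 changes of -0.44 ± 0.11 in mES (adjusted p = 0.000932) and -0.58 ± 0.13 in EBd2 (adjusted p = 0.00133), and measured -0.60 ± 0.23 in EBd3 (adjusted p = 0.0952) and 0.32 ± 0.22 in EBd4 (adjusted p = 0.418). The mES call was lost in the joint fit of all 24 libraries (adjusted p = 0.0606). The EBd3 value passed in the joint fit of all 24 libraries (adjusted p = 0.0223). Under Dox H1f2 fell against mES, at log2 changes of -1.57 ± 0.19 in EBd3 (adjusted p = 9.25e-08) and -1.57 ± 0.19 in EBd4 (adjusted p = 8.66e-08), and measured -0.20 ± 0.19 in EBd2 (adjusted p = 0.366).

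H1f1 encodes linker histone H1.1 (ENSMUSG00000049539, chromosome 13, 23763666 to 23764406, plus strand, 1 exon). H1f1 in mES stood at 4.53, 5.21 and 6.50 with Dox and 5.86, 8.81 and 6.77 with IAA. H1f1 in EBd2 stood at 11.7, 4.73 and 10.8 with Dox and 21.2, 21.7 and 19.9 with IAA. The groups overlapped in mES, and in EBd2 every IAA library was higher. H1f1 in EBd3 stood at 10.7, 17.03 and 18.04 with Dox and 24.5, 21.1 and 14.9 with IAA, and in EBd4 at 15.3, 19.9 and 11.3 with Dox and 6.63, 11.2 and 11.3 with IAA. They overlapped in EBd3, and in EBd4 every IAA library was lower, the nearest pair almost equal. The EBd2 rise was 1.20 ± 0.31 (adjusted p = 0.00575), and the values in mES, EBd3 and EBd4 were 0.34 ± 0.38, 0.39 ± 0.31 and -0.63 ± 0.36 (adjusted p = 0.526, 0.506 and 0.315). Under Dox it rose against mES in EBd3 (1.32 ± 0.37, adjusted p = 0.00362) and EBd4 (1.34 ± 0.37, adjusted p = 0.00309), and measured 0.58 ± 0.37 in EBd2 (adjusted p = 0.18). The EBd2 value was 0.94 and passed without EBd2 Dox 2 (adjusted p = 0.0366).

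H2ac8 and H2ac11 were the clustered H2A genes with the highest means, and neither passed the test with IAA in any stage. H2ac8 (ENSMUSG00000069272, chromosome 13, 23570517 to 23571220, minus strand, 1 exon) in mES stood at 14.5, 17.4 and 23.2 with Dox and 18.6, 19.4 and 19.6 with IAA, and in EBd2 at 29.3, 27.4 and 17.9 with Dox and 26.5, 19.8 and 21.9 with IAA. H2ac8 in EBd3 stood at 19.00, 15.97 and 13.8 with Dox and 20.6, 14.9 and 24.4 with IAA, and in EBd4 at 29.3, 17.4 and 16.4 with Dox and 13.3, 21.3 and 16.9 with IAA. Groups overlapped in every stage, with log2 values with IAA of 0.083 ± 0.25, -0.11 ± 0.24, 0.27 ± 0.30 and -0.26 ± 0.31 (adjusted p = 0.833, 0.784, 0.656 and 0.684). H2ac11 (ENSMUSG00000069301, chromosome 13, 22042460 to 22042944, minus strand, 1 exon) in mES stood at 6.34, 12.2 and 6.50 with Dox and 8.79, 11.5 and 8.28 with IAA, and in EBd2 at 5.87, 1.89 and 1.44 with Dox and 6.18, 5.41 and 3.98 with IAA. H2ac11 in EBd3 stood at 17.8, 5.32 and 8.49 with Dox and 16.8, 12.4 and 12.7 with IAA, and in EBd4 at 7.64, 11.2 and 15.1 with Dox and 8.53, 11.2 and 19.2 with IAA. These groups overlapped as well. Under Dox H2ac11 fell in EBd2 (-1.30 ± 0.47, adjusted p = 0.0175), a call lost by DESeq2 (adjusted p = 0.0667) and without mES Dox 2, EBd2 Dox 2 or EBd2 Dox 3 (adjusted p = 0.0656 to 0.0978). Exons of both genes overlap an unnamed gene on the opposite strand (Gm44394 and Gm44486).

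H2bc4, also named Hist1h2bc, is a clustered H2B gene with 2 merged exons (ENSMUSG00000018102, chromosome 13, 23684199 to 23692908, plus strand). H2bc4 in mES stood at 79.7, 73.8 and 87.4 with Dox and 69.4, 59.9 and 65.5 with IAA. H2bc4 in EBd2 stood at 98.9, 112 and 111 with Dox and 82.1, 74.9 and 74.9 with IAA. Every IAA library was lower in both stages. H2bc4 in EBd3 stood at 26.1, 36.2 and 35.02 with Dox and 23.2, 37.3 and 39.3 with IAA, and in EBd4 at 22.9, 18.7 and 26.4 with Dox and 43.6, 24.6 and 27.1 with IAA, with overlap. It fell in EBd2, at -0.46 ± 0.12 (adjusted p = 0.00482), a call lost by DESeq2 or in the joint fit of all 24 libraries (adjusted p = 0.05 to 0.0876). In mES it measured -0.30 ± 0.13 (adjusted p = 0.0573), which passed with total-read scaling (adjusted p = 0.0208) and without mES Dox 2 (adjusted p = 0.0487). The EBd3 and EBd4 values were 0.013 ± 0.24 and 0.44 ± 0.27 (adjusted p = 0.986 and 0.362). Under Dox it rose in EBd2 (0.41 ± 0.18, adjusted p = 0.0483) and fell in EBd3 (-1.29 ± 0.18, adjusted p = 9.37e-07) and EBd4 (-1.79 ± 0.18, adjusted p = 4.12e-09). The EBd2 rise was lost without a filter on low values, with TMM scaling or by DESeq2 (adjusted p = 0.0551 to 0.0804) and without mES Dox 1, mES Dox 2, mES Dox 3, EBd2 Dox 1, EBd2 Dox 2 or EBd2 Dox 3 (adjusted p = 0.0528 to 0.147).

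H2bu2, also named Hist3h2ba, is an H2B gene of the small cluster on chromosome 11 (ENSMUSG00000056895, chromosome 11, 58948920 to 58949533, plus strand, 1 exon). H2bu2 in mES stood at 4.53, 3.47 and 1.86 with Dox and 6.84, 3.52 and 3.76 with IAA. H2bu2 in EBd2 stood at 24.3, 31.2 and 36.6 with Dox and 15.9, 15.3 and 20.5 with IAA, with every IAA library lower. H2bu2 in EBd3 stood at 36.8, 46.8 and 32.9 with Dox and 21.9, 44.7 and 30.8 with IAA. In EBd3 the groups overlapped. H2bu2 in EBd4 stood at 42.02, 63.5 and 62.9 with Dox and 89.1, 98.5 and 96.99 with IAA, with every IAA library higher. With IAA it fell in EBd2 (-0.79 ± 0.23, adjusted p = 0.0138) and rose in EBd4 (0.77 ± 0.18, adjusted p = 0.0121), with 0.42 ± 0.45 in mES (adjusted p = 0.511) and -0.29 ± 0.25 in EBd3 (adjusted p = 0.526). The EBd2 call was lost by DESeq2 (adjusted p = 0.0846) and without EBd2 Dox 3 or EBd2 IAA 2 (adjusted p = 0.0538 to 0.0552), and the EBd4 call in the joint fit of all 24 libraries (adjusted p = 0.0648) and without EBd4 Dox 1 or EBd4 IAA 2 (adjusted p = 0.0635 to 0.0727). Under Dox it rose against mES by 2.92 ± 0.28, 3.25 ± 0.28 and 3.76 ± 0.28 (adjusted p = 2.32e-09, 3.96e-10 and 2.35e-11). H2aw, an H2A gene of the same cluster chosen here after its values were seen, was also lower with IAA in EBd2 (-1.34 ± 0.46, adjusted p = 0.0315). That value rests on 15 reads over the 3 Dox libraries and 4 over the 3 IAA libraries, a ratio of 0.259 after scaling with an exact 95% interval of 0.0626 to 0.813 for counting error only. The limma value of so few reads depends on the constant under the log, and 1 of 6 fits with a library left out kept the call. For H2aw in EBd2 edgeR gave an adjusted p of 0.0486, DESeq2 gave no adjusted p, and the authors' deposited table gives 0.104. Exons of H2aw overlap Trim17 on the same strand and Gm44313 on the opposite one.

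H3c3 and H3c10 were the highest clustered H3 genes. H3c3 (ENSMUSG00000069310, chromosome 13, 23744973 to 23745602, minus strand, 1 exon) in mES stood at 19.9, 26.1 and 23.2 with Dox and 28.3, 17.6 and 13.5 with IAA, and in EBd2 at 10.9, 18.9 and 12.9 with Dox and 17.7, 17.1 and 18.6 with IAA. H3c3 in EBd3 stood at 34.4, 40.4 and 36.1 with Dox and 36.1, 23.6 and 31.8 with IAA, and in EBd4 at 34.4, 27.4 and 46.6 with Dox and 24.6, 36.9 and 38.3 with IAA. Its groups overlapped in every stage, and its IAA values of -0.26 ± 0.25, 0.34 ± 0.27, -0.29 ± 0.23 and -0.11 ± 0.25 did not pass (adjusted p = 0.451, 0.385, 0.496 and 0.854). Under Dox it fell against mES in EBd2 (-0.69 ± 0.25, adjusted p = 0.0216) and rose in EBd3 (0.66 ± 0.25, adjusted p = 0.028) and EBd4 (0.60 ± 0.25, adjusted p = 0.0451). For H3c3 the EBd2 call was lost by DESeq2 (adjusted p = 0.0705) and without mES Dox 2, EBd2 Dox 1 or EBd2 Dox 3 (adjusted p = 0.0538 to 0.104), the EBd3 call by DESeq2 (adjusted p = 0.07) and without mES Dox 1, mES Dox 3, EBd3 Dox 2 or EBd3 Dox 3 (adjusted p = 0.0538 to 0.099), and the EBd4 call without a filter on low values, with TMM scaling or by DESeq2 (adjusted p = 0.0652 to 0.0984) and without mES Dox 1, mES Dox 3, EBd4 Dox 1 or EBd4 Dox 3 (adjusted p = 0.0703 to 0.217).

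H3c10 (ENSMUSG00000101355, chromosome 13, 21717659 to 21718069, plus strand, 1 exon) has the smallest share of stretches of its own (6.08%), so its reads are the least certain in origin. H3c10 in mES stood at 9.97, 13.9 and 10.2 with Dox and 8.79, 14.1 and 15.8 with IAA, and in EBd2 at 5.87, 7.56 and 5.74 with Dox and 10.6, 11.7 and 17.9 with IAA. H3c10 in EBd3 stood at 21.4, 21.3 and 18.04 with Dox and 25.8, 26.1 and 19.1 with IAA, and in EBd4 at 17.8, 19.9 and 21.4 with Dox and 13.3, 15.7 and 16.9 with IAA. The groups did not overlap in EBd2, with IAA higher, and in EBd4, with IAA lower. It rose in EBd2 by 0.94 ± 0.33 (adjusted p = 0.0351), a call lost without a filter on low values or by DESeq2 (adjusted p = 0.0734 to 0.129) and without EBd2 Dox 1, EBd2 Dox 3, EBd2 IAA 2 or EBd2 IAA 3 (adjusted p = 0.0608 to 0.184). The other IAA values were 0.15 ± 0.31, 0.21 ± 0.27 and -0.35 ± 0.28 in mES, EBd3 and EBd4 (adjusted p = 0.755, 0.712 and 0.498). Under Dox it fell in EBd2 (-0.74 ± 0.29, adjusted p = 0.0325) and rose in EBd3 (0.79 ± 0.29, adjusted p = 0.0239) and EBd4 (0.76 ± 0.29, adjusted p = 0.0301). For H3c10 the EBd2 stage call was lost without a filter on low values or by DESeq2 (adjusted p = 0.0581 to 0.125) and without mES Dox 2, EBd2 Dox 1 or EBd2 Dox 3 (adjusted p = 0.0776 to 0.127), the EBd3 call by DESeq2 (adjusted p = 0.0978) and without mES Dox 1, mES Dox 3, EBd3 Dox 1 or EBd3 Dox 2 (adjusted p = 0.0614 to 0.0757), and the EBd4 call without a filter on low values or by DESeq2 (adjusted p = 0.0557 to 0.127) and without mES Dox 1, mES Dox 3, EBd4 Dox 2 or EBd4 Dox 3 (adjusted p = 0.0601 to 0.0906).

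H4c9, also named Hist1h4i, had the highest clustered level per length (ENSMUSG00000060639, chromosome 13, 22040636 to 22041362, minus strand, 1 exon). H4c9 in mES stood at 48.9, 53.9 and 50.2 with Dox and 39.1, 58.1 and 57.96 with IAA. H4c9 in EBd2 stood at 104, 108 and 139.9 with Dox and 72.4, 70.4 and 78.9 with IAA. Dox 3 was the highest of the EBd2 libraries, and every IAA library was lower. H4c9 in EBd3 stood at 66.5, 80.9 and 89.1 with Dox and 56.8, 85.7 and 77.5 with IAA, and in EBd4 at 50.9, 76.01 and 57.9 with Dox and 48.3, 70.5 and 60.9 with IAA, with overlap. It fell in EBd2, at -0.65 ± 0.13 (adjusted p = 0.000616), a call kept without Dox 3 and with every other library left out in turn. The values in mES, EBd3 and EBd4 were -0.0014 ± 0.16, -0.11 ± 0.17 and -0.037 ± 0.20 (adjusted p = 0.995, 0.754 and 0.94). Under Dox it rose against mES in EBd2 (1.17 ± 0.16, adjusted p = 9.78e-07) and EBd3 (0.61 ± 0.16, adjusted p = 0.00253), and measured 0.25 ± 0.16 in EBd4 (adjusted p = 0.198). H4c4 (ENSMUSG00000061482, chromosome 13, 23581598 to 23582735, plus strand, 1 exon) in mES stood at 7.25, 11.3 and 6.50 with Dox and 1.95, 11.5 and 10.5 with IAA, and in EBd2 at 10.1, 11.3 and 7.18 with Dox and 13.2, 9.92 and 10.6 with IAA. H4c4 in EBd3 stood at 22.6, 12.8 and 20.2 with Dox and 12.9, 13.7 and 9.55 with IAA, and in EBd4 at 12.7, 19.9 and 13.8 with Dox and 18.01, 15.7 and 20.3 with IAA. Its groups overlapped in every stage, with IAA values of -0.28 ± 0.42, 0.23 ± 0.31, -0.56 ± 0.33 and 0.22 ± 0.30 (adjusted p = 0.652, 0.627, 0.324 and 0.724). Under Dox H4c4 rose in EBd3 (1.06 ± 0.34, adjusted p = 0.0091) and EBd4 (0.83 ± 0.34, adjusted p = 0.0369), the latter lost without a filter on low values or by DESeq2 (adjusted p = 0.0714 to 0.135) and without mES Dox 1, mES Dox 3 or EBd4 Dox 2 (adjusted p = 0.0971 to 0.147).

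Within libraries the classes can be set side by side without a scaling factor. Clustered genes took 1.74% ± 0.0587 (SD, n = 3) of the reads of all 32 histone genes in Dox mES and 1.49% ± 0.0960 with IAA. In EBd2 the shares were 2.16% ± 0.308 and 1.74% ± 0.0462, in EBd3 2.00% ± 0.0337 and 1.77% ± 0.132, and in EBd4 2.00% ± 0.211 and 2.10% ± 0.127. The IAA share was lower in every library in mES, EBd2 and EBd3 (exact two-sided permutation p = 0.1 in each, the smallest possible), and the groups overlapped in EBd4 (p = 0.7). In mES and EBd2 the 3 clustered genes with a mean of at least 50 (H1f2, H2bc4 and H4c9) summed to 254 ± 13.8 normalized counts with Dox and 207 ± 16.5 with IAA, and to 331 ± 31.5 and 222 ± 1.56, lower with IAA in every library. The other 21 summed to 187 ± 19.3 and 184 ± 3.502 in mES and to 201 ± 14.03 and 218 ± 9.38 in EBd2, with overlap. In EBd3 both sums overlapped, and so did the clustered share of all reads, at 0.00457% ± 7.93e-05 with Dox and 0.00418% ± 0.000307 with IAA (exact permutation p = 0.2). Replacement genes there took 0.223% ± 0.00154 of all reads with Dox and 0.232% ± 0.00328 with IAA, higher in every IAA library (exact permutation p = 0.1). In EBd4 replacement genes took 0.207% ± 0.00253 with Dox and 0.216% ± 0.00179 with IAA, again higher in every IAA library (exact permutation p = 0.1). Their shares overlapped in mES and EBd2 (exact permutation p = 0.4 and 0.9). H2afx reads per 100 H2afz reads were 60.7 ± 2.44 with Dox and 53.5 ± 2.45 with IAA in mES, 56.3 ± 4.26 and 28.6 ± 2.93 in EBd2, and 34.6 ± 1.09 and 24.9 ± 1.23 in EBd3, lower with IAA in every library. In EBd4 they were 34.8 ± 0.537 and 41.4 ± 4.36, higher with IAA in every library (exact permutation p = 0.1 in each of the 4 stages). H2afv took 15.2% ± 0.390 and 16.4% ± 0.225 of the reads of both H2A.Z genes in mES, and 15.7% ± 1.03 and 17.2% ± 0.497 in EBd4, higher with IAA in every library of these 2 stages. In EBd2 and EBd3 the groups overlapped (exact permutation p = 0.4 and 0.8). With such p no share can pass after adjustment over the 4 stages.

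**Figure D5:**
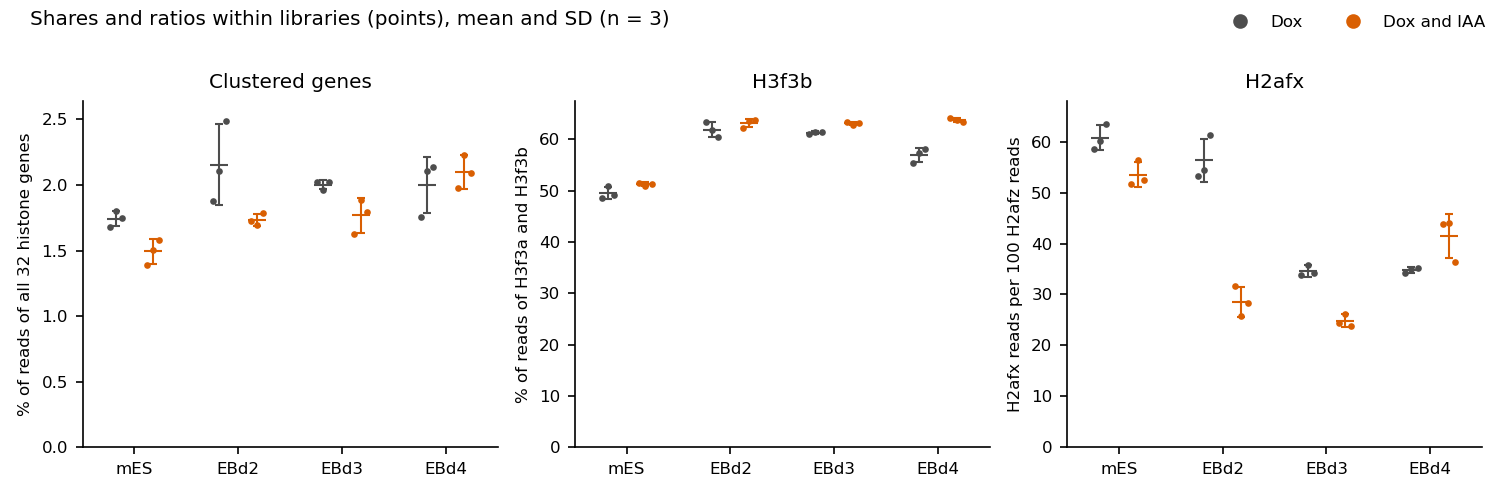
Reads of the 24 clustered genes in percent of all 32 histone genes (left), of H3f3b in percent of both H3.3 genes (middle) and of H2afx per 100 of H2afz (right), by library, with the mean and SD of each group of 3. The H2afx ratio is lower with IAA in mES, EBd2 and EBd3 and higher in EBd4.

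Whether the response to IAA differed between stages was tested as the IAA effect of an embryoid body stage minus that of mES. Of replacement genes, 1 was higher and 1 lower in EBd2 (9.73% and 6.61% of all genes tested), 1 higher and 1 lower in EBd3 (7.15% and 4.52%), and 1 higher and 3 lower in EBd4 (9.68% and 7.08%). Of clustered genes, 0 were higher and 2 lower in EBd2 and 1 higher and 0 lower in EBd4. In EBd3 limma called 0 of 24 clustered genes, as edgeR and DESeq2 did (16 had no adjusted p in DESeq2), and 1 had an unadjusted limma p under 0.05. The effect on H1f0 was larger in EBd2 (0.79 ± 0.13, adjusted p = 4.53e-05) and EBd3 (0.44 ± 0.13, adjusted p = 0.025) than in mES. That on H2afx was more negative in EBd2 (-0.67 ± 0.070, adjusted p = 9.38e-09) and EBd3 (-0.27 ± 0.070, adjusted p = 0.0074) and less so in EBd4 (0.22 ± 0.070, adjusted p = 0.0269). For H1f0 the EBd3 difference was lost without a filter on low values (adjusted p = 0.0658) and without mES Dox 2, mES IAA 2, EBd3 Dox 2, EBd3 Dox 3, EBd3 IAA 1 or EBd3 IAA 2 (adjusted p = 0.0591 to 0.0927), and for H2afx the EBd4 difference without a filter on low values (adjusted p = 0.0551) and without mES Dox 3, mES IAA 3, EBd4 Dox 3, EBd4 IAA 1 or EBd4 IAA 2 (adjusted p = 0.0525 to 0.0915). The EBd2 differences of H1f0 and H2afx and the EBd3 difference of H2afx were kept in every setting run. Of all genes called, 61.3% were higher in EBd3 and 57.8% in EBd4, or 71.8% and 71.2% with scaling to total reads. The 3 comparisons share the mES libraries.

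Genes of histone mRNA processing, histone chaperones and S phase were listed apart. Of all genes tested, 37.5%, 30.1%, 10.5% and 10.3% were called with IAA in mES, EBd2, EBd3 and EBd4, and 64.1%, 60.1% and 60.8% in Dox EBd2, EBd3 and EBd4 against mES. The counts that follow stand beside these shares. Of 16 genes that transcribe clustered genes or process their mRNAs, 6 rose and 3 fell with IAA in mES, 3 rose and 3 fell in EBd2, 1 rose in EBd3, and 1 rose and 1 fell in EBd4. Slbp, whose protein binds the stem-loop, rose in mES from 1407 ± 42.6 to 1699 ± 20.3 (SD, n = 3), log2 0.27 ± 0.033. The median log2 change of the 16 in mES was 0.057, beside -0.014 over all genes. Npat, the coactivator of clustered genes, rose in EBd4 from 1082 ± 19.8 to 1339 ± 53.8 (0.31 ± 0.053), and Casp8ap2, a protein of the same nuclear bodies, rose in EBd3 (0.22 ± 0.053). Under Dox, of the 16, 5 rose and 6 fell against mES in EBd2, 5 rose and 9 fell in EBd3, and 4 rose and 9 fell in EBd4. Srrt, a cap-binding complex partner, rose in each (1.43, 0.88 and 0.42).

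Of 20 chaperone and exchange genes tested, 7 rose and 3 fell with IAA in mES, 3 rose and 3 fell in EBd2, and 1 rose and 1 fell in EBd4. The list drawn up for these genes also held Cenpa, which is itself a histone gene. The shares called in EBd2 and EBd4, 6 and 2 of 20, were near those of all genes (13.4% up and 16.7% down in EBd2, 4.69% and 5.57% in EBd4), and DESeq2 called 1 in EBd4. In EBd3 limma called 0 of 20, as edgeR and DESeq2 did, with 5 at an unadjusted limma p under 0.05. Daxx, a chaperone of H3.3, fell in EBd2 from 1270.1 ± 41.8 to 1036 ± 26.4 (-0.29 ± 0.051) and in EBd4 from 724 ± 22.8 to 624 ± 8.38 (-0.21 ± 0.060). Anp32e, which removes H2A.Z, fell in mES (-0.20 ± 0.028). Under Dox 10 rose and 7 fell in EBd2, 8 rose and 7 fell in EBd3, and 8 rose and 10 fell in EBd4, with a median of -0.11 in EBd4 beside 0 over all genes, and Ubn1, a partner of HIRA, higher in each (0.93, 0.78 and 0.93). Of 23 S phase genes, 11 rose and 3 fell with IAA in mES, 4 rose and 6 fell in EBd2, 1 rose and 4 fell in EBd3, and 0 rose and 5 fell in EBd4, where DESeq2 called 1. Of all genes 17.3% rose and 20.1% fell in mES, and 4.22% and 6.32% in EBd3. Pcna, the replication clamp, rose in mES (0.31 ± 0.025) and EBd2 (0.26 ± 0.055), and Ccne1, cyclin E1, fell in mES (-0.69 ± 0.040), EBd2 (-0.33 ± 0.047) and EBd4 (-0.41 ± 0.066). Under Dox 8 S phase genes rose and 9 fell in EBd2, 4 rose and 15 fell in EBd3, and 1 rose and 16 fell in EBd4, where their median was -0.38, beside 35% and 29.1%, 31.5% and 28.6%, and 30.6% and 30.2% of all genes. The part of these changes in the histone values was not tested.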

How the data were processed

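RNA sequencing was analysed for 24 libraries, 3 for each of 8 groups, in 4 tables, 1 for each stage. Per the submitters' processing notes, reads were aligned with STAR 2.5.3a to mm10, counted with featureCounts 1.5.2 and compared with DESeq2. Annotation version, strandedness and the treatment of reads that fit several places are not given in the sources used here. The deposited values are a signal, gene counts that the authors divided by size factors. Multiplying by the size factor gave whole reads for 100% of positive values (tolerance 1e-06). The tables also hold the authors' deposited log2 fold changes, Wald statistics (a score), p-values and adjusted p-values, used only where named. Genes without a symbol took 1.12% to 1.32% of reads and stayed in the fits.

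The members and gene lists were chosen with earlier results of these data known. Named are all replacement genes and, of each clustered family, the genes of highest mean. Log2(value + 1) was tested with limma 3.58.1 (trend) over genes with a mean of at least 1 in the libraries fitted, with Benjamini-Hochberg adjustment over all genes tested and a threshold of 0.05. A test on counts had been planned for count files. IAA was compared with Dox in the 6 libraries of a stage, Dox stages in the 12 Dox libraries, and IAA effects between stages in all 24. Fold changes are on the log2(value + 1) scale, with standard errors, and understate the change of low genes. Shares of reads were compared with two-sided exact permutation tests. Alternatives were constants of 0.5 and 5, no filter or a mean of at least 10, TMM or total-read scaling, edgeR 4.0.16 and DESeq2 1.42.0 on recovered reads, a replicate block, a joint fit of all libraries, and each library left out in turn. The fits were tested on simulated data. Positions, exons and stem-loops are from GENCODE M21 and upstream sequences from RefSeq (GRCm38.p6). Python 3.11.15 was used for the tables. ChIA-PET, ChIP-seq and 4C libraries of the study were not analysed here. Intervals from counts cover counting error only.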

Additional observations from a re-analysis of the deposited data

Results flagged for a closer look

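The IAA effect of 11 genes and stages differed from that in mES by the test of the difference (limma over all 24 libraries, adjusted p under 0.05). In EBd2 the difference on the log2 scale was 0.79 ± 0.13 for H1f0, -0.67 ± 0.070 for H2afx, -1.21 ± 0.40 for H2bu2 and -1.98 ± 0.67 for H2aw (adjusted p = 4.53e-05 for H1f0, adjusted p = 9.38e-09 for H2afx, adjusted p = 0.0363 for H2bu2 and adjusted p = 0.0376 for H2aw). In EBd3 it was 0.44 ± 0.13 for H1f0 and -0.27 ± 0.070 for H2afx (adjusted p = 0.025 and adjusted p = 0.0074). In EBd4 it was 0.76 ± 0.25 for H1f2, 0.22 ± 0.070 for H2afx, -0.21 ± 0.055 for H2afz, -0.19 ± 0.067 for H2afv and -0.17 ± 0.057 for H3f3a.

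H2afx in EBd2 and EBd3, H1f0 in EBd2 and H2afz in EBd4 kept the call with each of the 12 libraries of both stages left out in turn. H2bu2 in EBd2 was lost without a filter on low values, by edgeR or by DESeq2 (adjusted p = 0.0588 to 0.174) and without mES Dox 3, mES IAA 1, EBd2 Dox 2, EBd2 Dox 3, EBd2 IAA 1 or EBd2 IAA 2 (adjusted p = 0.0688 to 0.127). H1f2 in EBd4 was lost without mES Dox 3, mES IAA 1, mES IAA 2 or EBd4 Dox 1 (adjusted p = 0.0555 to 0.138). H2afv in EBd4 was lost without a filter on low values, with TMM scaling, with total-read scaling or by edgeR (adjusted p = 0.0572 to 0.166) and without mES Dox 2, mES Dox 3, mES IAA 1, mES IAA 2, mES IAA 3, EBd4 Dox 2, EBd4 Dox 3, EBd4 IAA 1, EBd4 IAA 2 or EBd4 IAA 3 (adjusted p = 0.0515 to 0.13). H3f3a in EBd4 was lost without a filter on low values, with TMM scaling, with total-read scaling or by edgeR (adjusted p = 0.0614 to 0.142) and without mES Dox 2, mES Dox 3, mES IAA 1, mES IAA 2, EBd4 Dox 1, EBd4 Dox 2, EBd4 IAA 1 or EBd4 IAA 2 (adjusted p = 0.0537 to 0.136). H2aw kept the call in 4 of 12 such fits, and its few reads make the fitted value depend on the constant under the log. The 3 comparisons share the 6 mES libraries, so their differences are not independent of each other.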

How the results depend on the processing

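For the named genes no value changed direction past the threshold in any alternative run. Other genes were not checked for this. The number of the 32 histone genes called moved by over 1.5 times in mES with all libraries fitted jointly (3 in place of 6), in EBd2 by DESeq2 (7 in place of 12), and for the differences from mES without a filter (2 in place of 4 in EBd2, 1 in place of 2 in EBd3, 2 in place of 5 in EBd4) and with TMM scaling in EBd4 (3 in place of 5). The cause was not tested. With 1 library left out the number called with IAA ranged from 6 to 7 in mES, 7 to 11 in EBd2, 3 to 5 in EBd3 and 2 to 5 in EBd4. For Dox stages against mES it ranged from 12 to 17 in EBd2, 17 to 18 in EBd3 and 12 to 17 in EBd4, beside 18, 20 and 17 with all libraries. For the differences it ranged from 2 to 5, 1 to 2 and 1 to 5. For the named genes 102 values with a library left out lost a call, 12 gained one and 1290 did neither. Calls given as lost by DESeq2 refer to the fits run here. The authors' deposited adjusted p with IAA was 0.00895 for H1f10 in mES and 0.0136 for H3f3a in EBd4. In EBd2 it was 0.0310 for H2bc4, 0.0239 for H2bu2 and 0.0380 for H3c10, but 0.102 for H1f10. It was also above 0.05 for H1f0 in mES (0.139) and H3f3b in mES (0.0611) and EBd3 (0.115). In EBd2 it was under 0.05 for H2afv (0.0262) and H3f3b (0.0412), which did not pass there in the main limma test. Over all genes, EBd3 gave 2245 calls, 1214 by DESeq2 and 1202 to 1463 without Dox 1, Dox 2, Dox 3 or IAA 1. EBd4 gave 2173, 1413 by DESeq2, 3425 jointly and 776 to 887 without Dox 1, Dox 2 or IAA 2. Of 16 shares of reads over genes with a mean of at least 50, 8 moved by more than 1 SD, all of them of clustered genes. All 8 replacement genes and only 3 of the 24 clustered genes have such a mean. The replacement shares therefore could not move, and the clustered shares had to fall. Few reads limit the clustered genes, and how reads from shared sequence were counted was not tested.

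With a replicate block the number called was 6 in mES, 13 in EBd2, 3 in EBd3 and 4 in EBd4, 18, 20 and 17 for the Dox stages, and 5, 2 and 5 for the differences. Over all genes the block gave 1365 calls in EBd4. Libraries of the same number showed little shared deviation (correlations from -0.218 to 0.107). In mES each Dox library correlated best with the IAA library of its own number (0.00999 to 0.0319). The labels do not say whether libraries of the same number belong together, and correlations over 3 libraries cannot settle it.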
